A study of Mus musculus with 12 samples.

Results

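The interleukin-1 family and inflammasome genes examined here are Il1a, Il1b, Il1rn, Il18, Il18bp, Nlrp3, Casp1, Casp4, Pycard and Gsdmd, which were taken by gene symbol and make up 10 of the 54532 genes in the count table. Each symbol matched 1 row. RNA-seq was performed in 12 libraries of bone marrow macrophages (BMMs), which were grown from the marrow of wild-type C57BL/6J mice aged 2 to 3 months. Marrow cells were differentiated in CSF-1 (12 ng/ml for 24 h, then 120 ng/ml for 48 h) with 15% serum and passaged once. The dishes were either uncoated or coated with 10 µg/ml fibronectin. Every dish then received antibody at 10 µg/ml for 24 h, which was a control IgG or an antibody that neutralizes integrin α5 (ITGA5), the α chain of the fibronectin receptor. The 4 groups cross antibody (IgG or anti-ITGA5) with coating (with or without fibronectin) and hold 3 libraries each. No inflammasome stimulus such as endotoxin is named for any group, all groups received an antibody, and the medium of uncoated dishes held serum too.

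Interleukin-1α and interleukin-1β are cytokines that bind a shared receptor and start inflammatory signaling, and the receptor antagonist encoded by Il1rn occupies that receptor without signaling. Interleukin-1β and interleukin-18 are made as precursors that caspase-1 cleaves inside the inflammasome, a complex in which the sensor NLRP3 recruits caspase-1 through the adaptor ASC, the product of Pycard. Caspase-1 and caspase-4 (caspase-11 in the mouse) also cleave gasdermin D, which then forms pores in the plasma membrane. RNA levels report neither cleavage nor secretion, so the values below concern transcripts only.

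Library totals ranged from 12954342 to 22075432 counts. All 10 macrophage markers had counts in every library. Of the 10 neutrophil markers, Ly6g and Retnlg had 0 counts in all 12 libraries. However, S100a8 (17 to 44 counts), Mpo (3 to 21) and Mmp8 (356 to 1586) had counts in every library. S100a9, Elane, Camp, Ltf and Ngp ranged from 0 to at most 13 counts. Replicates differed most in anti-ITGA5 without fibronectin, where the chi-square per gene between pairs of libraries reached 23, against at most 7.45 in the other groups. In anti-ITGA5 with fibronectin, replicate 3 stood apart in 20 interferon response genes, whose summed level was 615 CPM (counts scaled to library size), against 262 and 232 in the other replicates. The study describes its BMM experiments as biologically independent, but the labels tie no library to an animal or culture, and p-values measure the spread between these libraries. In bulk RNA, fewer cells of a type and less RNA per cell cannot be told apart.

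Promoter sequences are shown for the 4 members that passed the test in both antibody comparisons, because these genes moved together and share a direction. RefSeq (GRCm38.p6) gave windows for 9 of the 10 members, 13 windows in all, each running from 250 bases before to 50 bases after a start. The 250 upstream bases are printed 5′ to 3′ on the strand of the gene, and capitals mark matches to the motifs named after them. Il1rn is shown for the first of its RefSeq starts (chr2:24336610-24336859, + strand) and for a second start 8431 bases downstream (chr2:24345041-24345290, + strand). The counts pool all starts of a gene. Nlrp3 is at chr11:59541319-59541568 (+ strand), Casp1 at chr9:5298267-5298516 (+ strand) and Pycard at chr7:127993868-127994117 (- strand).
Il1rn, first start: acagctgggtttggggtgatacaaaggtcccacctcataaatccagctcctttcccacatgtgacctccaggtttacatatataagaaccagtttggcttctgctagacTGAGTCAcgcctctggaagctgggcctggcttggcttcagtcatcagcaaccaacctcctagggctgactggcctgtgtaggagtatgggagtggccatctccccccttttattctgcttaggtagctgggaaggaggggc
Il1rn, second start: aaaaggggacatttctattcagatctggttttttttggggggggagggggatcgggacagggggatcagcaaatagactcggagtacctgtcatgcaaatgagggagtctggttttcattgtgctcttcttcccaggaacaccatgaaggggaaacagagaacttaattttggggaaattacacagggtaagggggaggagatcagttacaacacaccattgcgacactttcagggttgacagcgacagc
Nlrp3: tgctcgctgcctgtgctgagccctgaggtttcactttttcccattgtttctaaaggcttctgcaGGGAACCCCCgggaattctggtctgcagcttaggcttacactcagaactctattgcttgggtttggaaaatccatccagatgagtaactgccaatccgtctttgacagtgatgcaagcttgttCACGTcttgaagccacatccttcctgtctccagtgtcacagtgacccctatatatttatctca
Casp1: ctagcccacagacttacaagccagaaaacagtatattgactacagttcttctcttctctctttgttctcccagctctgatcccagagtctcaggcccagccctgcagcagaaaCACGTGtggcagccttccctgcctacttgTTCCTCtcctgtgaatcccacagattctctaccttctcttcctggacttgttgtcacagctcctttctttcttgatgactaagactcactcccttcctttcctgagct
Pycard: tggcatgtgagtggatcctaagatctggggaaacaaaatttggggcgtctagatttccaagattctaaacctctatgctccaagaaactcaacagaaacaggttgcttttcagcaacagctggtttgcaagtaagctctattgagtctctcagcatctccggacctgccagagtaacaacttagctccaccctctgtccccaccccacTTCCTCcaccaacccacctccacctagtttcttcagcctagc

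The motifs were searched on both strands of the whole 300-base windows, and may overlap. The NF-kB motif was searched as its 10-base consensus, which is 3 G, a purine, 2 bases of any kind, 2 pyrimidines and 2 C. The interferon-stimulated element was searched as GAAANNGAA. The STAT motif was TTCNNNGAA in this search. For AP-1 the letters TGANTCA were used. For HIF they were ACGTG. For PU.1 they were GAGGAA. Of 32851 RefSeq windows, 8.46% held the NF-kB motif, 8.56% the interferon-stimulated element, 8.3% the STAT motif, 7.81% the AP-1 motif, 19.6% the HIF motif and 28.3% the PU.1 motif. The Il1rn window at the first start held 1 AP-1 match and the other 2 Il1rn windows held none of the motifs. In Nlrp3, the window at the first start held an NF-kB match that reads on both strands and 1 HIF match, and the window at its other start held 3 PU.1 matches. Casp1 held 1 palindrome that matches the HIF motif on both strands and 1 PU.1 match, and Pycard held 1 PU.1 match. Outside these genes, both Casp4 windows held NF-kB matches, although Casp4 passed the test in no comparison. Il1a held 1 AP-1 and 1 PU.1 match. No window of the 9 members held the interferon-stimulated element or the STAT motif, and the windows of Il1b, Il18 and Il18bp held none of the letters searched. A match is a string of letters and was not tested for binding.

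Upon ITGA5 neutralization, the antagonist Il1rn rose most among the members that passed the test, and the inflammasome genes Nlrp3, Casp1 and Pycard rose by smaller amounts, on uncoated dishes as well as on fibronectin. The agonists Il1a and Il1b were near the limit of detection in all 4 groups, and neither passed where it was tested (Il1b was not tested on fibronectin). Without fibronectin, 5 of 10 members passed at an adjusted p of 0.05 (edgeR's quasi-likelihood test, adjusted over 12924 genes by Benjamini-Hochberg), all of them higher in anti-ITGA5, where 11.0% of all genes tested were higher and 9.79% were lower. With fibronectin, 4 of the 9 members tested passed, again all higher, against 14.4% of all genes higher and 13.2% lower (12916 genes tested). The median log2 fold change of the members was 0.26 without fibronectin (all genes, 0.01) and 0.21 with fibronectin (all genes, -0.00377). The share of members that were higher was above the share of all genes in both coatings, but 10 genes are few and they were chosen with earlier results known.

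**Figure D1:**
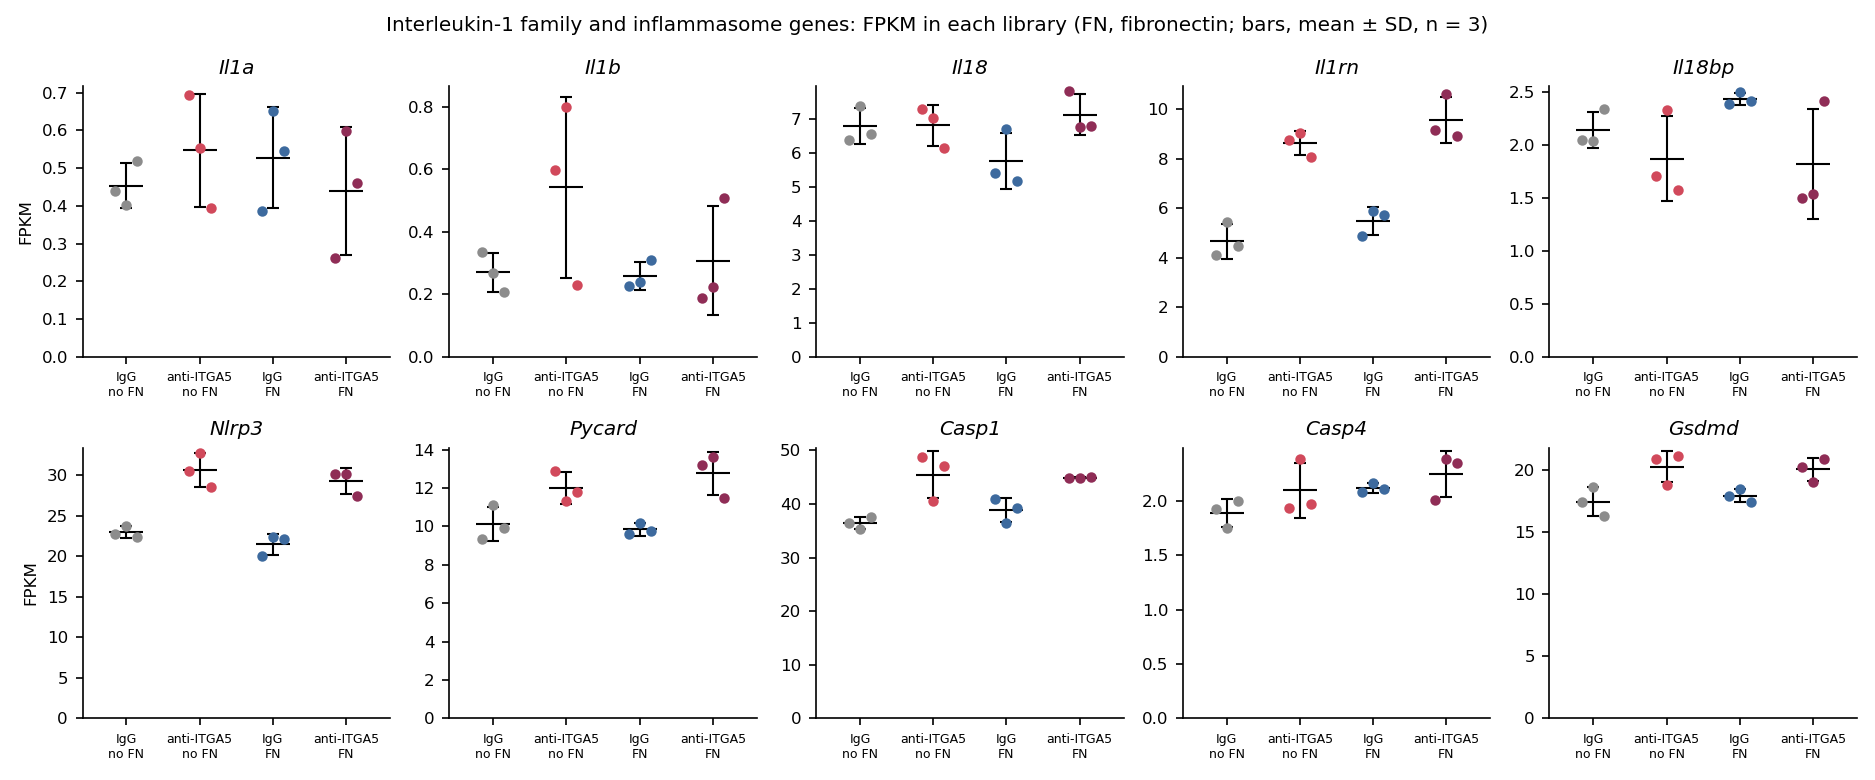
FPKM (fragments per kilobase of gene length, scaled to library size; vertical axis from 0) of each member in each library (points), with the mean ± SD of 3 libraries, for IgG (grey, blue) and anti-ITGA5 (red, purple) on uncoated dishes (no FN) and on fibronectin (FN). The anti-ITGA5 points of Il1rn, from 8.08 to 10.6, lie above all IgG points, from 4.09 to 5.89, whereas the points of Il1a and Il1b overlap between all groups.

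Among the ligands, Il1a (interleukin-1α; chromosome 2, 129299610 to 129309972, - strand; coordinates of all genes are those of the deposited tables, GRCm38) had 10 to 28 counts per library. Its FPKM values were 0.44, 0.401 and 0.52 in IgG without fibronectin and 0.693, 0.552 and 0.395 in anti-ITGA5 without fibronectin. On fibronectin they were 0.385, 0.652 and 0.546 with IgG and 0.261, 0.599 and 0.46 with anti-ITGA5. The groups overlapped on both coatings. The log2 fold change upon neutralization was 0.26 without fibronectin (95% interval -0.497 to 1.02) and -0.28 with fibronectin (-1.06 to 0.496). Neither passed, and at this depth the intervals leave room for a rise of about 2-fold on uncoated dishes and a fall of about 2-fold on fibronectin.

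Il1b (interleukin-1β; chromosome 2, 129364570 to 129371139, - strand) had 7 to 21 counts per library. It measured 0.334, 0.267 and 0.209 FPKM in IgG without fibronectin, and 0.598, 0.8 and 0.23 FPKM in anti-ITGA5 without fibronectin. Replicates 1 and 2 of anti-ITGA5 were above all IgG libraries, while replicate 3 lay within them. The fitted log2 fold change of 0.96 (standard error 0.484) did not pass (edgeR adjusted p = 0.192), and its 95% interval ran from -0.107 to 2.04. Leaving out anti-ITGA5 replicate 3 gave a log2 fold change of 1.36 and leaving out replicate 2 gave 0.574, with adjusted p-values of 0.06 and 0.413 (edgeR). On fibronectin, Il1b was left out by the filter on low counts; its values were 0.228, 0.241 and 0.311 FPKM with IgG and 0.189, 0.225 and 0.507 FPKM with anti-ITGA5, which overlap. Both the Il1a and the Il1b locus overlap a gene on the other strand in the GENCODE M21 annotation (Gm14023 and Il1bos), as do Il18 (Bco2 and Tex12) and Il18bp (Numa1), and the strand used in counting is not given in the sources used here.

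Il18, the precursor of interleukin-18 (chromosome 9, 50554827 to 50581840, + strand), was the most abundant of the 3 ligands in every group. It measured 6.4, 7.4 and 6.58 FPKM in IgG without fibronectin and 7.3, 7.04 and 6.15 FPKM in anti-ITGA5 without fibronectin. These ranges overlapped, and the 95% interval of the log2 fold change was -0.276 to 0.291. On fibronectin the values were 5.43, 6.73 and 5.18 FPKM with IgG and 7.84, 6.77 and 6.8 FPKM with anti-ITGA5. There all 3 anti-ITGA5 libraries were above all IgG libraries, yet the log2 fold change of 0.30 did not pass (95% interval -0.000711 to 0.6, edgeR adjusted p = 0.13).

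Il1rn, which encodes the interleukin-1 receptor antagonist (chromosome 2, 24336853 to 24351494, + strand), had 391 to 1097 counts per library. Its FPKM values were 4.09, 5.45 and 4.47 in IgG without fibronectin and 8.75, 9.03 and 8.08 in anti-ITGA5 without fibronectin. On fibronectin they were 4.86, 5.89 and 5.71 with IgG and 9.15, 10.6 and 8.92 with anti-ITGA5. All 6 anti-ITGA5 libraries were above all 6 IgG libraries. Il1rn rose 1.85-fold without fibronectin (log2 fold change 0.89, standard error 0.0999, adjusted p = 0.0001745) and 1.74-fold with fibronectin (log2 fold change 0.80, standard error 0.0866, adjusted p = 3.266e-05; both edgeR). Over every alternative and every library left out, the log2 fold change ranged from 0.768 to 1.01 on uncoated dishes and from 0.704 to 0.85 on fibronectin, with adjusted p-values up to 0.0214 and 0.0172.

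Il18bp encodes a secreted decoy that binds interleukin-18 (chromosome 7, 102014885 to 102018690, - strand). It measured 2.05, 2.04 and 2.34 FPKM in IgG without fibronectin and 1.71, 2.33 and 1.58 FPKM in anti-ITGA5 without fibronectin, which overlap. With the coating, its levels were 2.39, 2.5 and 2.42 FPKM with IgG and 1.5, 1.54 and 2.42 FPKM with anti-ITGA5. Replicates 1 and 2 of anti-ITGA5 were below all IgG libraries, and replicate 3 was at their level. This is the library with the high interferon response genes, and Irgm1, an interferon-inducible GTPase, was also high there (6.57 FPKM against 3.65 and 3.73); the part of the interferon genes in Il18bp was not tested. The log2 fold change of Il18bp on fibronectin was -0.44 (95% interval -0.808 to -0.0627, edgeR adjusted p = 0.07812). Without replicate 3 of anti-ITGA5 with fibronectin it was -0.682 and passed (edgeR adjusted p = 0.00184), whereas without replicate 1 it was -0.309 (edgeR adjusted p = 0.27). It also passed with the replicate number as a block (edgeR adjusted p = 0.0166) and with all genes of at least 1 count tested (0.0204).

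The balance of inhibitor to ligand was described with 2 ratios of FPKM values, which were chosen after the data were seen. The ratio of Il1rn to the sum of Il1a and Il1b was 5.28, 8.17 and 6.13 in IgG without fibronectin and 6.78, 6.68 and 12.9 in anti-ITGA5 without fibronectin. On fibronectin it was 7.92, 6.6 and 6.66 with IgG and 20.3, 12.9 and 9.22 with anti-ITGA5. The ratios overlapped without fibronectin and were all higher in anti-ITGA5 with fibronectin. The mean log2 difference was 0.38 without fibronectin (exact permutation test, two-sided, p = 0.4) and 0.93 with fibronectin (p = 0.1, the smallest that 3 against 3 libraries allow). The ratio rests on the low counts of Il1a and Il1b, and its level depends on the gene length: its group means were 6.53 and 8.79 without fibronectin and 7.06 and 14.2 with it (IgG, then anti-ITGA5), but 12.7, 16.7, 13.9 and 27.3 on the longest coding transcript of each gene.

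The ratio of Il18bp to Il18 was 0.32, 0.275 and 0.355 in IgG without fibronectin and 0.235, 0.33 and 0.257 in anti-ITGA5 without fibronectin. On fibronectin it was 0.44, 0.372 and 0.468 with IgG and 0.191, 0.228 and 0.355 with anti-ITGA5. It was lower in all 3 anti-ITGA5 libraries on fibronectin (mean log2 difference -0.77, exact permutation test p = 0.1), and overlapped without fibronectin (-0.22, exact permutation test p = 0.3). In IgG, fibronectin gave a higher ratio in all 3 libraries (mean log2 difference 0.43, exact permutation test p = 0.1). These are 8 tests of which none could pass 0.05.

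**Figure D2:**
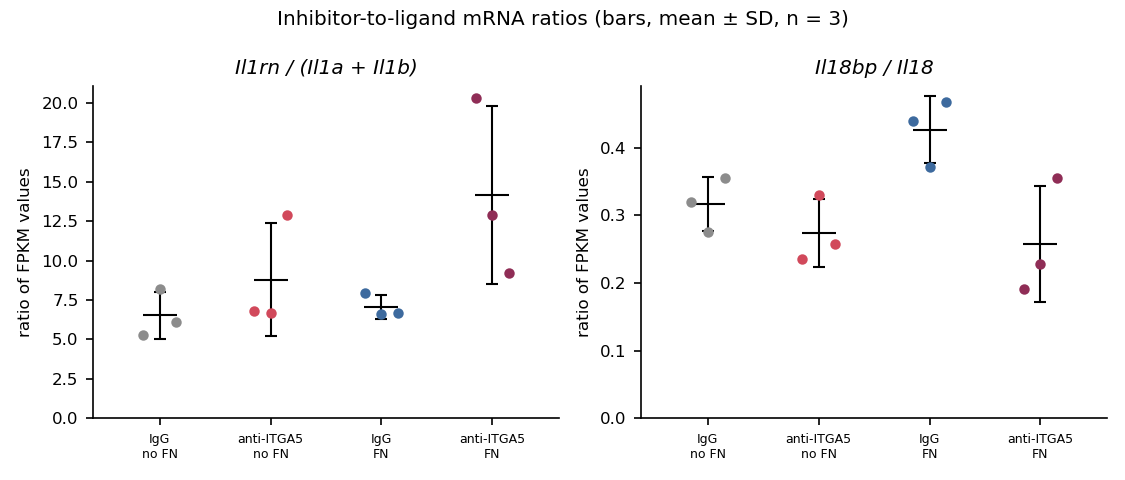
Ratio of FPKM values of inhibitor to ligand in each library (points; vertical axes from 0), with the mean ± SD of 3 libraries in each group. On fibronectin (FN), the 3 anti-ITGA5 points of Il1rn to Il1a plus Il1b (9.22 to 20.3) are above the IgG points (6.6 to 7.92; levels on the deposited gene lengths), and those of Il18bp to Il18 (0.191 to 0.355) are below them (0.372 to 0.468).

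Nlrp3, the inflammasome sensor (chromosome 11, 59541568 to 59566956, + strand), had 1493 to 2384 counts per library. It measured 22.8, 23.8 and 22.4 FPKM in IgG without fibronectin and 30.5, 32.8 and 28.6 FPKM in anti-ITGA5 without fibronectin. Coated dishes gave 20.0, 22.4 and 22.1 FPKM with IgG and 30.2, 30.2 and 27.5 FPKM with anti-ITGA5. The lowest anti-ITGA5 library was above the highest IgG library across both coatings. Nlrp3 rose 1.34-fold without fibronectin (log2 fold change 0.42, standard error 0.0639, edgeR adjusted p = 0.001159) and 1.36-fold with it (log2 fold change 0.44, standard error 0.0564, edgeR adjusted p = 0.0001115). It passed under every alternative and without any single library, with adjusted p-values up to 0.0271 without fibronectin and 0.02 with fibronectin.

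Pycard encodes the adaptor ASC (chromosome 7, 127989708 to 127993867, - strand). It measured 9.37, 11.1 and 9.94 FPKM in IgG without fibronectin and 12.9, 11.3 and 11.8 FPKM in anti-ITGA5 without fibronectin. Levels on coated dishes were 9.58, 10.2 and 9.75 FPKM with IgG and 13.2, 13.6 and 11.5 FPKM with anti-ITGA5. The libraries of the antibody groups did not overlap on either coating, although the gap between IgG replicate 2 and anti-ITGA5 replicate 2 without fibronectin was narrow. Pycard rose 1.19-fold without fibronectin (log2 fold change 0.25, standard error 0.0773, edgeR adjusted p = 0.04509) and 1.29-fold with fibronectin (log2 fold change 0.37, standard error 0.0706, edgeR adjusted p = 0.001981). The call on uncoated dishes was lost when IgG replicate 1 or 3 or anti-ITGA5 replicate 1 or 3 was left out (edgeR adjusted p from 0.0819 to 0.196), with DESeq2 (adjusted p = 0.103) and in all 3 limma settings (0.131 to 0.216). The call on fibronectin passed under every alternative, up to an adjusted p of 0.0468. Gm45205 overlaps Pycard on the other strand.

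Casp1, the protease of the inflammasome (chromosome 9, 5298517 to 5307265, + strand), was the most abundant member per length in every group. It measured 36.5, 35.4 and 37.5 FPKM in IgG without fibronectin and 48.8, 40.6 and 47.1 FPKM in anti-ITGA5 without fibronectin. On fibronectin it measured 40.9, 36.4 and 39.3 FPKM with IgG and 44.9, 44.9 and 45.0 FPKM with anti-ITGA5. Within each coating the antibody groups did not overlap, but anti-ITGA5 replicate 2 without fibronectin was below IgG replicate 1 with fibronectin. Casp1 rose 1.25-fold without fibronectin (log2 fold change 0.33, standard error 0.0684, edgeR adjusted p = 0.007168) and 1.15-fold with it (log2 fold change 0.21, standard error 0.0544, edgeR adjusted p = 0.01335). The second call was lost without IgG with fibronectin replicate 2 (edgeR adjusted p = 0.0732), and in limma on log2(FPKM + 0.1) (adjusted p = 0.0529) and on log2(FPKM + 1) with no filter (0.0614). The first was lost in all 3 limma settings, with adjusted p-values from 0.058 to 0.0972.

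Casp4 (chromosome 9, 5308828 to 5336783, + strand) starts 1562 bases past the end of Casp1 on the same strand. It measured 1.93, 1.75 and 2.0 FPKM in IgG without fibronectin and 1.94, 2.39 and 1.97 FPKM in anti-ITGA5 without fibronectin, which overlap. On fibronectin it measured 2.08, 2.17 and 2.11 FPKM with IgG and 2.01, 2.39 and 2.35 FPKM with anti-ITGA5, which overlap too. The log2 fold change upon neutralization was 0.14 (95% interval -0.146 to 0.435) and 0.08 (-0.165 to 0.33), and neither passed. No difference between Casp1 and Casp4 in their response was tested.

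Gsdmd, which encodes the pore-forming gasdermin D (chromosome 15, 75862327 to 75867408, + strand), measured 17.4, 18.6 and 16.3 FPKM in IgG without fibronectin and 20.9, 18.8 and 21.1 FPKM in anti-ITGA5 without fibronectin. With the coating the values were 17.9, 18.5 and 17.4 FPKM with IgG and 20.2, 19.0 and 20.9 FPKM with anti-ITGA5. All 6 anti-ITGA5 libraries were above all 6 IgG libraries by FPKM. Gsdmd rose 1.17-fold without fibronectin (log2 fold change 0.23, standard error 0.0684, edgeR adjusted p = 0.03895), and the log2 fold change of 0.16 with fibronectin did not pass (95% interval 0.0313 to 0.286, edgeR adjusted p = 0.06232). The first call was lost when IgG replicate 1 or 3 or anti-ITGA5 replicate 1 or 3 was left out (edgeR adjusted p from 0.129 to 0.153), with all genes of at least 1 count tested (0.0715), with DESeq2 (0.114) and in all 3 limma settings (0.116 to 0.178). The second passed when anti-ITGA5 with fibronectin replicate 2 was left out (edgeR adjusted p = 0.0493), with the replicate number as a block (0.04) and with total counts in place of TMM (0.0242).

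By the separation of FPKM values alone, 5 of 10 members were higher in all 3 anti-ITGA5 libraries without fibronectin, where 15.0% of 17587 genes with a mean of at least 0.1 FPKM were. With fibronectin 6 of 10 were, against 18.0% of 16528 genes, and Il18 and Gsdmd were among them. No member was lower in all 3 libraries in either coating, but the share of all genes that were lower was not counted, so nothing is read from this. Exact permutation tests of the 40 FPKM differences could not go below p = 0.1, and 13 reached that value (adjusted p = 0.31, Benjamini-Hochberg).

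**Figure D3:**
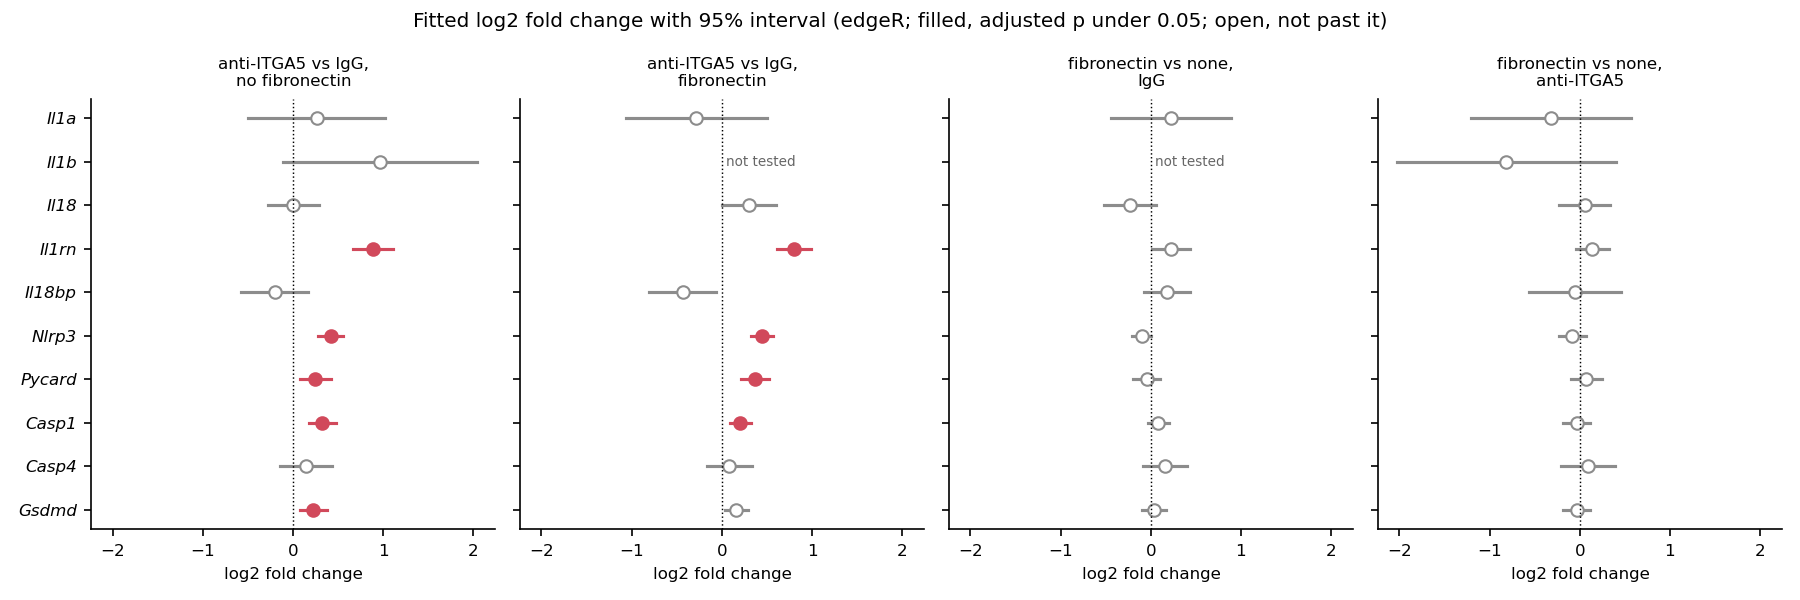
Fitted log2 fold change of each member (horizontal axis; points) with its 95% interval (lines) in the 4 comparisons; filled red points passed an edgeR adjusted p of 0.05 and open grey points did not. In the antibody comparisons Il1rn lies furthest to the right of the filled points (0.89 and 0.80), and in the fibronectin comparisons no point is filled.

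Fibronectin coating itself moved no member past the threshold. In IgG, 0 of 9 members tested passed (edgeR; 0.325% of 12925 genes were higher and 0.124% lower), 1 had an unadjusted p under 0.05, and limma called 0 as well. DESeq2 called 0, but gave an adjusted p for 1 member only, Nlrp3. The member with the unadjusted p was Il1rn, with a log2 fold change of 0.23 (95% interval 0.0186 to 0.437, edgeR adjusted p = 0.4558). Nlrp3 had a log2 fold change of -0.10 (95% interval -0.207 to 0.00543), Casp1 0.09 (-0.0318 to 0.204) and Gsdmd 0.03 (-0.096 to 0.165). By FPKM, Il18bp and Casp4 were higher in all 3 fibronectin libraries, which is 2 of 10 members against 7.47% of 16804 genes.

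In anti-ITGA5, 0 of 10 members passed (edgeR), 0 had an unadjusted p under 0.05, and DESeq2 and limma called 0. Of 12863 genes tested there, 0% were higher and 0% lower by edgeR (461 genes had an unadjusted p under 0.05, and DESeq2 called 5), whereas edgeR called 327 of 25430 genes when all genes of at least 1 count were tested. None of the 10 members was higher by FPKM in all 3 fibronectin libraries, against 4.79% of 17319 genes. The log2 fold changes were 0.14 for Il1rn (95% interval -0.0447 to 0.322), -0.08 for Nlrp3 (-0.235 to 0.0718), -0.03 for Casp1 (-0.185 to 0.117) and 0.07 for Pycard (-0.0995 to 0.245). For Il1b the interval was wide, from -2.03 to 0.407.

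Whether the antibody effect differed between coatings was tested with an interaction term, in which 0 of 10 members passed (edgeR; 0 at an unadjusted p under 0.05, 0 by DESeq2 and by limma), against 0.0223% of 13455 genes. The difference, with fibronectin minus without, was -0.09 on the log2 scale for Il1rn (95% interval -0.397 to 0.219), 0.02 for Nlrp3 (-0.165 to 0.206), -0.12 for Casp1 (-0.311 to 0.0668) and 0.12 for Pycard (-0.111 to 0.351). For Gsdmd, which passed only on uncoated dishes, it was -0.07 (-0.262 to 0.119). For Il18 it was 0.29 (-0.0997 to 0.68). Members that passed in 1 coating and not in the other were therefore not shown to differ between coatings.

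Levels between genes were compared per length, as mean FPKM ± SD (n = 3). In IgG without fibronectin the order was Casp1 (36.5 ± 1.04), Nlrp3 (23.0 ± 0.711), Gsdmd (17.4 ± 1.16), Pycard (10.1 ± 0.907), Il18 (6.8 ± 0.534), Il1rn (4.67 ± 0.704), Il18bp (2.14 ± 0.171), Casp4 (1.9 ± 0.128), Il1a (0.454 ± 0.0608) and Il1b (0.27 ± 0.0623), and no neighbours overlapped. In both anti-ITGA5 groups Il1rn stood above Il18, at 8.62 ± 0.489 and 9.57 ± 0.94 FPKM, and there Casp4 overlapped Il18bp and Il1a overlapped Il1b. In IgG with fibronectin, Il18 overlapped Il1rn. The order depends on the gene length: the deposited length of Il1rn is 5535 bases, whereas its longest protein-coding transcript in GENCODE M21 has 2474. Rescaled to the longest coding transcript, an alternative added after the data were seen, Il1rn stood above Pycard in all 4 groups (10.5 against 10.1 FPKM in IgG without fibronectin) and Casp4 above Il18bp. Gsdmd then stood above Nlrp3 in IgG with fibronectin (23.8 against 21.7 FPKM). Il1b stood above Il1a in anti-ITGA5 without fibronectin (0.763 against 0.547 FPKM).

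The spread among replicates differed between members. The coefficient of variation within a group was between 0.228% and 9.5% for Casp1 and between 3.09% and 6.8% for Nlrp3. It was between 17.2% and 56.7% for Il1b and between 2.45% and 28.5% for Il18bp, with the 2 highest values of each in the anti-ITGA5 groups.

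For each member that passed, the 2 genes with the most similar log2 CPM across the 12 libraries were listed out of 13445 genes, with Pearson's r as a description. For Il1rn these were Spn (r = 0.982), which encodes the leukocyte sialoglycoprotein CD43, and Clec12a (0.979), which encodes an inhibitory C-type lectin receptor. For Nlrp3 they were Nup210 (0.987), a nuclear pore protein, and Inpp4b (0.983), a phosphoinositide phosphatase. For Casp1 they were Wdr75 (0.971) and Nop56 (0.965), both of ribosome biogenesis. For Pycard they were Gtse1 (0.968), a cell cycle gene, and Dhrs9 (0.963), and for Gsdmd they were Crcp (0.964), a subunit of RNA polymerase III, and Rgs1 (0.934), a regulator of G-protein signaling. The 12 libraries fall into antibody groups, so these values share that split.

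A wider list of 50 pathway genes was read beside the members. Without fibronectin 36 were tested, 2 were higher and 7 were lower, with a median log2 fold change of -0.06. With fibronectin 36 were tested, 6 were higher and 11 were lower, with a median of -0.02. These counts stand against 11.0% of all genes higher and 9.79% lower without fibronectin, and 14.4% and 13.2% with it. The split depends on the scaling: with total counts in place of TMM, 3 were higher and 6 lower without fibronectin, and 6 were higher and 7 lower with it. Of the 9 genes that passed without fibronectin, 8 passed under every alternative that gave a value, and of the 17 with fibronectin 7 did. The 6 other ligands of the family, among them Il33 and the interleukin-36 genes, were all left out by the filter on low counts, as were the interleukin-1 receptors Il1r1 and Il1r2 and the interleukin-18 receptor chain Il18r1.

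Among the receptors and the signaling genes behind them, Il1rl1, the receptor of interleukin-33, rose on fibronectin (log2 fold change 0.68, edgeR adjusted p = 0.04671), and so did Il1rl2, the interleukin-36 receptor (1.31, adjusted p = 0.01253). Both were scarce, with Il1rl2 between 0.034 and 0.204 FPKM. Without fibronectin their log2 fold changes were 0.63 (95% interval 0.134 to 1.12) and 1.22 (0.307 to 2.14), which did not pass. The kinases Irak1 and Irak2, which relay signals from interleukin-1 and Toll-like receptors, fell on both coatings. Irak2 fell from 18.3 ± 0.787 to 13.3 ± 0.269 FPKM without fibronectin (log2 fold change -0.45, edgeR adjusted p = 0.0003709) and from 16.9 ± 0.509 to 13.6 ± 0.614 FPKM with it (-0.31, edgeR adjusted p = 0.0007879; SD, n = 3). Irak1 had log2 fold changes of -0.23 and -0.21, and Traf6, a ubiquitin ligase downstream of them, fell by 0.19 and 0.17 on the log2 scale. The Traf6 call was lost in 10 of 16 alternatives on each coating, among them every single library left out except anti-ITGA5 replicate 2 on uncoated dishes, and except IgG replicate 1 and anti-ITGA5 replicate 3 on fibronectin. Tollip, which dampens the pathway, rose on fibronectin (0.15, edgeR adjusted p = 0.02474). The fibronectin calls of Il1rl1 and Tollip were lost without IgG replicate 1 or 3 or anti-ITGA5 replicate 1 or 2 (edgeR adjusted p from 0.122 to 0.162 and from 0.0575 to 0.127). That of Il1rl1 was also lost with DESeq2 and in limma with no filter (limma adjusted p = 0.184), and that of Tollip in all 3 limma settings. The Il1rl2 call was lost without IgG replicate 2 (edgeR adjusted p = 0.0647) and in limma with no filter. On uncoated dishes, Il1rl1 passed without anti-ITGA5 replicate 3 (edgeR adjusted p = 0.0306) and Tollip without anti-ITGA5 replicate 2 (0.0497) or with total counts in place of TMM (0.037), while Il1rl2 passed with all 12 libraries in one fit (0.0333).

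The other inflammasome sensors went the opposite way to Nlrp3 where they passed. Nlrc4, which forms the inflammasome that responds to bacterial flagellin, measured 4.16, 3.79 and 3.76 FPKM in IgG without fibronectin and 2.48, 2.52 and 2.44 FPKM in anti-ITGA5 without fibronectin. Coated dishes gave 4.18, 3.42 and 3.72 FPKM with IgG and 2.57, 2.61 and 2.83 FPKM with anti-ITGA5. All anti-ITGA5 libraries were below all IgG libraries, and Nlrc4 fell on both coatings (log2 fold changes -0.65 and -0.50, edgeR adjusted p = 0.000446 and 0.00222). The Naip genes encode the receptors that activate NLRC4, and Naip2 fell on both coatings (-0.37 and -0.34, edgeR adjusted p = 0.001967 and 0.001344). Naip1, Naip5 and Naip6 fell by 0.96, 0.21 and 0.22 on the log2 scale on fibronectin and did not pass without it, where their 95% intervals reached down to -1.16, -0.328 and -0.292. On fibronectin, the Naip1 call was lost without any single library other than anti-ITGA5 replicate 2. That of Naip5 was lost without IgG replicate 2 or 3 or anti-ITGA5 replicate 1, and that of Naip6 without IgG replicate 2 or 3 or anti-ITGA5 replicate 2. The edgeR adjusted p ran from 0.0505 to 0.233 over these 3 genes. All 3 calls were also lost with total counts in place of TMM and in limma with no filter. Those of Naip5 and Naip6 were lost in limma on log2(FPKM + 0.1). Limma on log2(FPKM + 1) at a minimum of 0.5 FPKM lost that of Naip6, and the fit of all 12 libraries lost that of Naip1. On uncoated dishes, Naip5 passed without anti-ITGA5 replicate 3 (edgeR adjusted p = 0.045) or with all 12 libraries in one fit (0.0379), and Naip6 without anti-ITGA5 replicate 2 (0.0168). The Naip genes are closely similar copies, and how reads shared between them were handled in counting is not given in the sources used here. Nlrp1b, another sensor, fell on fibronectin (-0.42, edgeR adjusted p = 0.001715) and had -0.28 without it (95% interval -0.527 to -0.0349), where it passed when anti-ITGA5 replicate 2 was left out (edgeR adjusted p = 0.000228) or with all genes of at least 1 count tested (0.0106).

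Among the regulators, Serpinb1a, a protease inhibitor of leukocytes, rose most. It measured 0.829, 0.982 and 0.817 FPKM in IgG without fibronectin and 2.33, 2.93 and 1.69 FPKM in anti-ITGA5 without fibronectin. On fibronectin it measured 0.849, 0.878 and 0.492 FPKM with IgG and 2.1, 1.94 and 1.13 FPKM with anti-ITGA5. No anti-ITGA5 library was as low as the highest IgG library. The rise was 2.63-fold (log2 fold change 1.40, standard error 0.249, edgeR adjusted p = 0.002982) and 2.32-fold (1.22, standard error 0.274, edgeR adjusted p = 0.005626). The call on fibronectin was lost in limma on log2(FPKM + 0.1) (adjusted p = 0.06) and on log2(FPKM + 1) with no filter (0.101). Irgm1, a restrainer of inflammasome activity, fell without fibronectin (-0.67, edgeR adjusted p = 0.0009657). On fibronectin its log2 fold change was -0.43 (95% interval -0.805 to -0.0594), and it passed without replicate 3 of anti-ITGA5 (-0.755, edgeR adjusted p = 1.57e-06), with all genes of at least 1 count tested (1.37e-06) and with the replicate number as a block (0.000144). Panx1, a membrane channel, fell on fibronectin (-0.29, edgeR adjusted p = 0.007148), a call lost in limma with no filter (adjusted p = 0.0682).

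Among the effectors of lytic death, Ninj1, whose product ruptures the plasma membrane after gasdermin pores have formed, fell on both coatings. It measured 166, 169 and 170 FPKM in IgG without fibronectin and 126, 105 and 123 FPKM in anti-ITGA5 without fibronectin. On fibronectin it measured 201, 196 and 190 FPKM with IgG and 130, 143 and 127 FPKM with anti-ITGA5. The antibody groups did not overlap, and the log2 fold changes were -0.51 and -0.56 (edgeR adjusted p = 0.0003837 and 7.959e-06). Ninj1 was also the gene of the wider list that passed for fibronectin in IgG, where it rose 1.16-fold (log2 fold change 0.22, edgeR adjusted p = 0.01274), a call that 6 of 16 alternatives lost, among them leaving out replicate 1 of either IgG group (edgeR adjusted p = 0.194 without the uncoated and 0.106 without the coated library). Mlkl, the effector of necroptosis, rose on both coatings (0.34 and 0.39, edgeR adjusted p = 0.005282 and 0.00285). Its upstream kinase Ripk3 rose on fibronectin (0.27, edgeR adjusted p = 0.04882), a call lost in 8 of 16 alternatives. It was lost without IgG replicate 2 or 3 or anti-ITGA5 replicate 2 (edgeR adjusted p from 0.152 to 0.182). The other losses were with DESeq2, with genes of at least 10 counts in every library, and in all 3 limma settings (adjusted p up to 0.216).

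**Figure D4:**
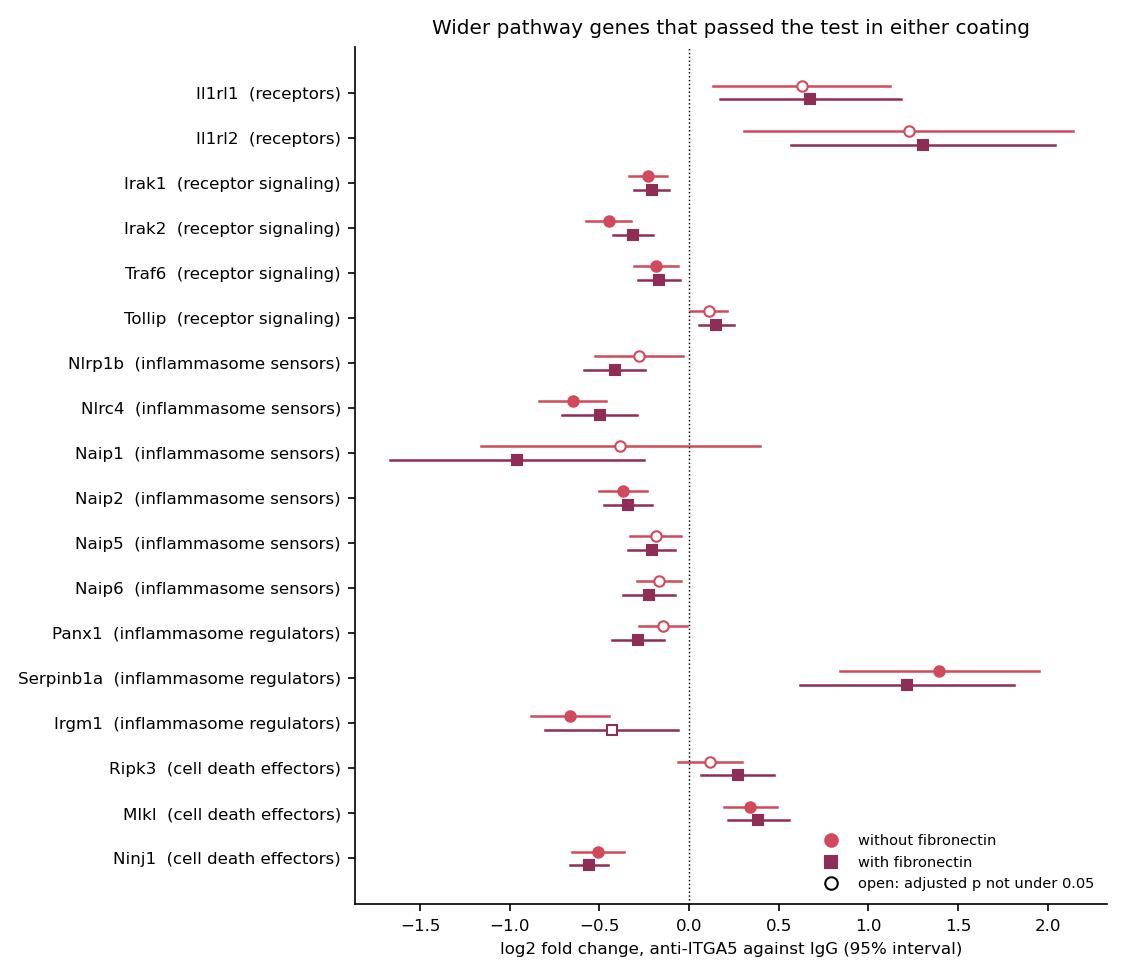
Log2 fold change upon ITGA5 neutralization (horizontal axis, with 95% intervals) of the wider pathway genes that passed in either coating, by role; circles are uncoated dishes, squares are fibronectin, and open symbols did not pass an edgeR adjusted p of 0.05. Sensors lie to the left of 0 and Serpinb1a lies furthest to the right among the filled symbols.

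Several reference lists moved with the antibody, and their part in the results above was not tested. The summed level of the 10 macrophage markers was 14700 to 15700 CPM in IgG and 11600 to 13000 CPM in anti-ITGA5 over both coatings, with 1 marker higher and 4 lower without fibronectin and 2 higher and 4 lower with it. The 10 proliferation genes, a list added after the data were seen, were all higher on both coatings with a median log2 fold change of 1.39, and their summed level was 754 to 1060 CPM in IgG and 2000 to 2750 CPM in anti-ITGA5. Of 19 interferon response genes tested, 12 were lower without fibronectin (median -0.99) and 0 passed with fibronectin (median -0.24). Of 16 NF-kB response genes tested, 4 were higher and 4 lower without fibronectin, and 5 were higher and 4 lower with fibronectin. Beside the gene counts of these lists, 11.0% of all genes tested were higher and 9.79% lower without fibronectin, and 14.4% and 13.2% with it. The summed level of the NF-kB response genes was 485 to 568 CPM in IgG and 584 to 684 CPM in anti-ITGA5. However, only 7 of the 16 tested had a positive log2 fold change on each coating, and the median was -0.244 without fibronectin and -0.0899 with it. The summed level of the 10 neutrophil markers was 46.3 to 87.7 CPM in IgG and 30.0 to 40.5 CPM in anti-ITGA5, and most of it was Mmp8 (356 to 1586 counts). The summed levels of the dendritic cell, fibroblast, lymphoid, mast cell and endothelial markers reached at most 5.87, 3.65, 0.687, 0.326 and 25.3 CPM in any library.

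**Figure D5:**
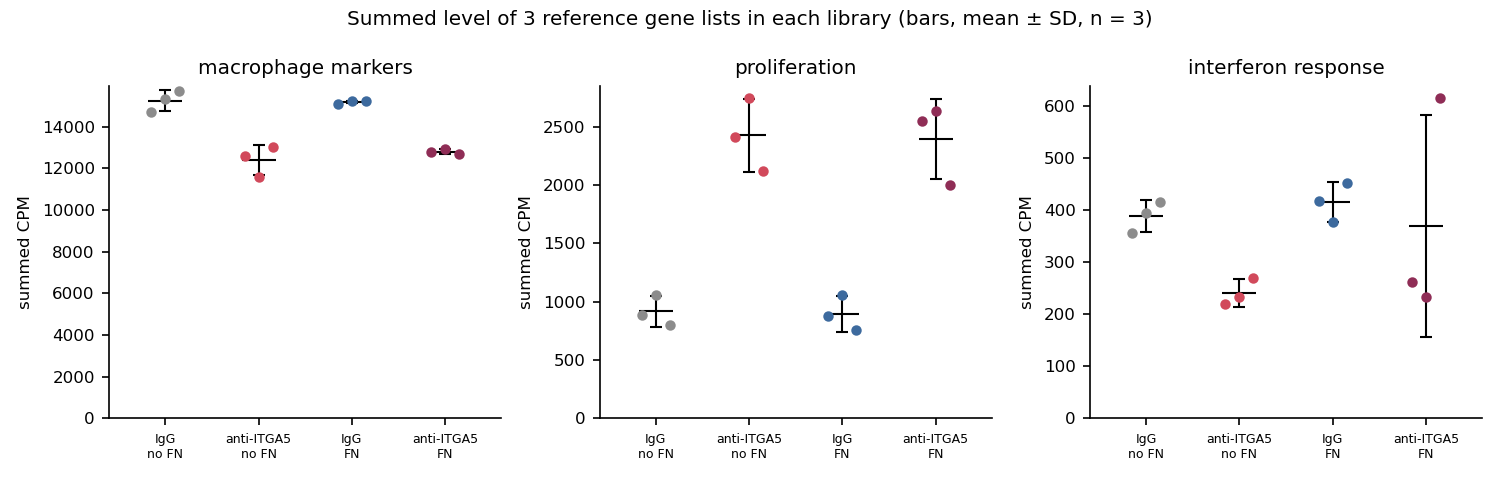
Summed CPM (vertical axes from 0) of the 10 macrophage markers, the 10 proliferation genes and the 20 interferon response genes in each library (points), with the mean ± SD of 3 libraries. The anti-ITGA5 libraries are below the IgG libraries in the macrophage markers and above them in the proliferation genes on both coatings, and replicate 3 of anti-ITGA5 with fibronectin stands at 615 CPM in the interferon response genes.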

How the data were processed

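RNA was isolated from BMMs, and poly(A)-selected libraries were sequenced as paired-end reads. The authors deposited raw counts per gene, made with TopHat2 2.0.9 and HTSeq 0.6.1 on mm10 (GRCm38.p6) per the submitters' processing notes, and a table of FPKM per gene, for which the notes also name Cufflinks 2.1.1. The strand used in counting and the annotation release are not given in the sources used here. The FPKM values divide by a deposited gene length, so levels between genes depend on it.

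Groups were taken from the labels, and the members and gene lists were chosen with earlier results of these data known. Counts were tested per comparison with edgeR 4.0.16 (R 4.3.3; TMM, quasi-likelihood test, Benjamini-Hochberg over all genes tested, threshold 0.05) after edgeR's filter at a minimum count of 10 and a total of 15, and the interaction was fitted on all 12 libraries. FPKM values were compared with exact permutation tests (SciPy 1.17.1). Alternatives were other size factors, other filters, DESeq2 1.42.0, limma 3.58.1 on log2(FPKM + 1) or log2(FPKM + 0.1), a fit of all 12 libraries, a replicate block and leaving out each library. The code was tested on simulated data. Results are given by name for the 10 members, genes of the wider list that passed in at least 1 comparison, and for each member that passed the 2 genes with the highest r. Untested genes of the list, neutrophil markers and overlapping genes are also named where a sentence needs them, chosen after their values were seen. Library totals were 12954342 to 22075432 counts, which leaves members with under 30 counts imprecise.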

Additional observations from a re-analysis of the deposited data

How the results depend on the processing

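The number of members that passed without fibronectin (5) was 3 with DESeq2 and 2 with each of the 3 limma settings, and lay between 3 and 5 when 1 library was left out; Il1rn and Nlrp3 passed in all 16 alternatives, Pycard in 8 and Gsdmd in 7, and the cause of the losses was not tested. With fibronectin (4) it lay between 3 and 5 over the libraries left out and the replicate block gave 6, with Gsdmd and Il18bp added. The counts of 0 for fibronectin in IgG, fibronectin in anti-ITGA5 and the interaction stayed at 0 under every alternative run, although DESeq2 gave an adjusted p for only 1 member for fibronectin in IgG. In the wider list, the 17 genes that passed with fibronectin were 10, 8 and 7 with limma (log2(FPKM + 1) and log2(FPKM + 0.1) at a minimum of 0.5 FPKM, and log2(FPKM + 1) with no filter), and 10 to 17 when 1 library was left out; the lowest counts were without IgG with fibronectin replicate 3 (10) and replicate 2 (11). Ninj1, which made the count of 1 for fibronectin in IgG, was lost with all 12 libraries in one fit and with the 3 limma settings (0), and the count was 0 to 1 without single libraries, being lost without replicate 1 of either group. For fibronectin in anti-ITGA5 the count of 0 became 1 (Irgm1) with genes of at least 1 count.

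The direction of 9 values turned, all of them for members that did not pass there. Il18 without fibronectin was -0.00434 with genes of at least 1 count, and -0.0402 to 0.0828 over the libraries left out. The same ranges were -0.102 to 0.0262 for Pycard and -0.00961 to 0.0849 for Gsdmd for fibronectin in IgG. For fibronectin in anti-ITGA5 they were -0.0241 to 0.104 for Il18, -0.307 to 0.132 for Il18bp, -0.0983 to 0.015 for Casp1 and -0.0752 to 0.00115 for Gsdmd. For the interaction they were -0.0295 to 0.0823 for Nlrp3 and -0.105 to 0.0408 for Casp4.

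Whether the replicate numbers mark shared cultures is not given in the labels, and they were not treated as pairs: in no comparison did every pair of same-numbered libraries correlate above 0.1 in its deviations from the group means (range -0.0196 to 0.149), although 11 of 12 libraries correlated best with their own number, a hint of shared variation from the data and not from the design. With the replicate block, 5 members passed without fibronectin and 6 with it, and 0 passed for fibronectin in IgG, fibronectin in anti-ITGA5 and the interaction. Over all genes the block moved the calls from 2684 to 2968, from 3565 to 4538, from 58 to 416, from 0 to 2 and from 3 to 3 in these 5 comparisons. With all genes of at least 1 count, the calls over all genes rose from 58 to 241 for fibronectin in IgG, from 0 to 327 for fibronectin in anti-ITGA5 and from 3 to 65 for the interaction. Depth limits Il1a and Il1b, with 7 to 28 counts per library.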
